A study of Mus musculus with 12 samples.

Results

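Accessible regions at the ends of long noncoding RNA (lncRNA) genes that lie far from protein-coding genes were examined in activated neurons of the mouse infralimbic prefrontal cortex. A gene was taken as isolated when both of its ends lay over 5 kb from every end of a protein-coding gene, on chromosomes 1 to 19 of the build mm10. Of 12408 lncRNA genes on these chromosomes in the RefSeq table, 8644 were isolated and 3764 were not. The isolated genes comprised 6279 intergenic genes, 2137 nested genes inside the span of a coding gene, and 228 spanning genes that overlap a coding gene without lying inside it. The table gives 1 interval per gene, so whether a nested gene sits in an intron of its host was not used here. A peak that touched the span from 1 kb before to 1 kb after an end of an isolated gene, with a minimum overlap of 1 bp, was a member and is called an end peak below. There were 2361 of them among 97961 peaks in RC replicate 3, 1977 among 80735 in EXT replicate 1 and 3167 among 123375 in EXT replicate 2, or 2.41%, 2.45% and 2.57% of the lists. An end peak in at least 1 of these lists was present for 3130 of the 8644 genes.

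Chromatin accessibility had been measured by ATAC-seq, in which a transposase cuts and tags DNA that is not covered by nucleosomes. The mice were C57BL/6 males, 10 to 12 weeks old, and every animal had received 3 tone and foot shock pairings. The next day, in another context, extinction (EXT) mice heard 60 tones, whereas mice of the retention control (RC) stayed there equally long without tones, and tissue was taken straight afterwards. Neurons positive for Arc, an activity-induced gene product, and for the neuronal protein NeuN were sorted. Each library used 50000 cells from the pooled tissue of 5 mice, so all p-values measure the spread between such pools. Lists of 3 RC and 2 EXT libraries were read, of which those of RC replicates 1 and 2 stop within chromosome 1 as held here (at positions 166286196 and 37624379). The libraries held 57.7 M to 73.8 M tags. Whole-genome values therefore come from RC replicate 3 and both EXT libraries, always in that order where 3 values are given together. Among ends of marker genes, 5, 6 and 7 of 7 neuronal genes had a peak, against 1 in each list of 4 astrocyte genes, 1 to 2 of 4 microglial genes, 1 to 2 of 4 endothelial genes and 1 to 2 of 4 oligodendrocyte genes. Of all autosomal coding genes, 58.1%, 55.2% and 63.0% had such a peak, so these few markers are a weak check on cell type. Cx3cr1, P2ry12, Aldh1l1, Aqp4 and Mog had no end peak in these lists, whereas Gfap, Sox10, Spi1 and Cldn5 had one in each.

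LncRNAs are transcripts without a long open reading frame, many of them spliced and made by RNA polymerase II. Some act on neighbouring genes, some are processed into microRNAs or small nucleolar RNAs, and for most of those named only by an identifier no function is known. Many lncRNAs start at the promoter of a coding gene, in the opposite direction or overlapping it, so accessibility at such a start cannot be assigned to either gene. The distance rule used the outer ends of coding genes, so coding transcripts that start inside a host gene were not removed by it. The promoter table, which lists several starts for some genes, placed a coding start within 1 kb of an end of 94 isolated genes and within 5 kb of 182, namely 161 nested, 21 spanning and 0 intergenic genes. Promoters of broadly expressed genes are often CpG islands, stretches rich in the dinucleotide CpG, which is depleted elsewhere in the mammalian genome.

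Promoter windows of 6 isolated genes are shown as examples that differ in CpG content. Each runs from 250 bases before to 50 bases after the annotated start, is 300 bases long, is written 5′ to 3′ on the strand of the gene, and is taken from RefSeq (GRCm38.p6, the same build as mm10). Capitals mark CpG dinucleotides. The intergenic genes D130051D11Rik (chr15:85634346-85634645, plus strand) and Gm33628 (chr12:108758142-108758441, minus strand) and the nested genes Hk1os (chr10:62339984-62340283, plus strand) and Gm38560 (chr10:82858959-82859258, minus strand) were among the highest ranked. Dancr (chr5:74092810-74093109, plus strand) is a widely studied lncRNA gene that also hosts a small nucleolar RNA. Those 5 windows overlapped a peak in all 3 complete lists. The promoter table also lists coding starts on the opposite strand 187 bp from the start of Hk1os (Hk1) and 198 bp from that of Gm38560 (Txnrd1), so the open chromatin at these 2 starts cannot be assigned to the lncRNA gene alone. The window of Mir17hg (chr14:115044140-115044439, plus strand), the host of the miR-17 cluster of microRNAs, overlapped none. It is the only closed window printed, and its annotated start lies within the microRNA cluster, as described below.
D130051D11Rik: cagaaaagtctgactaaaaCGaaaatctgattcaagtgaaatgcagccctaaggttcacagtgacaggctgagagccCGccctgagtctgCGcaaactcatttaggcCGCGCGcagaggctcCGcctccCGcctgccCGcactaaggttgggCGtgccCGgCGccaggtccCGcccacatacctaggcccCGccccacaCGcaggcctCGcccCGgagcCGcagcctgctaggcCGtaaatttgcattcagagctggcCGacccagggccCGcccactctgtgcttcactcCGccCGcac
Gm33628: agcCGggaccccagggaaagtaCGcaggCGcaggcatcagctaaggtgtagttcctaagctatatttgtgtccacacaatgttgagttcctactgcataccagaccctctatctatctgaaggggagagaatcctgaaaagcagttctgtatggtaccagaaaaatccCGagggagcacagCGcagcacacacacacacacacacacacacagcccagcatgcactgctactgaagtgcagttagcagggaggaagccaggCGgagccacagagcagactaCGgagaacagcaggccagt
Hk1os: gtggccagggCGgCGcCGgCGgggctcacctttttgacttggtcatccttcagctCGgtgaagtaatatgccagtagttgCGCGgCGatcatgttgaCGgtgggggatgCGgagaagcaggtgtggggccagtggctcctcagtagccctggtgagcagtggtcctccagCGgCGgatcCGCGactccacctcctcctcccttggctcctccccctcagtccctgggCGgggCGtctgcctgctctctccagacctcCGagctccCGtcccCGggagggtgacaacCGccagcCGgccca
Gm38560: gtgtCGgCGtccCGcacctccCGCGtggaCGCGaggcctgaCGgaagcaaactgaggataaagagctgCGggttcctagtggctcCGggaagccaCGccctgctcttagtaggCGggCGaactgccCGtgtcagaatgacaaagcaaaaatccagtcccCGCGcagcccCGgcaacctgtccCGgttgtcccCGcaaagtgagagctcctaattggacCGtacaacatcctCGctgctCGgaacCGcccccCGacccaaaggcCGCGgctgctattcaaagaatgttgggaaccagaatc
Dancr: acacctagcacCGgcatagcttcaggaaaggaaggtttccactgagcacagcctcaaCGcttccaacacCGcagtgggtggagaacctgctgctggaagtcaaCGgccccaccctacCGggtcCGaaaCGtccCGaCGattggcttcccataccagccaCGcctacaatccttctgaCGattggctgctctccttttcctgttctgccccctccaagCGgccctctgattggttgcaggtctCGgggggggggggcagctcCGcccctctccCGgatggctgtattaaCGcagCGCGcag
Mir17hg: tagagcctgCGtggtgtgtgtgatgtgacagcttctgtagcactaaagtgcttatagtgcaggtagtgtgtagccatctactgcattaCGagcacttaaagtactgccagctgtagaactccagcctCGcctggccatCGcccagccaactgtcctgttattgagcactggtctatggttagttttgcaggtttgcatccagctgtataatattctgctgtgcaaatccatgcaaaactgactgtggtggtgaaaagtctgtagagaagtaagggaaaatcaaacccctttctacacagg
The 5 accessible windows held 23 CpG dinucleotides in D130051D11Rik, 7 in Gm33628, 21 in Hk1os, 26 in Gm38560 and 18 in Dancr, and the Mir17hg window held 4. CpG observed over expected, the CpG count divided by the count that the C and G content would give, was 0.78, 0.33, 0.62, 0.93, 0.65 and 0.24 in the same order. Gm33628 thus had an accessible start with a CpG content nearer to that of the closed window than to those of the other 4. Closed windows could also be CpG rich. That of Mirc35hg, not printed, held 35 CpG dinucleotides at a ratio of 0.95 and overlapped no peak in the complete lists.

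Isolated lncRNA genes had an accessible end less often than the other lncRNA genes in each library. An end peak was present at 23.4% of the isolated genes in RC replicate 3 (exact 95% binomial interval 22.5 to 24.3%), at 19.8% in EXT replicate 1 (18.98 to 20.7%) and at 30.3% in EXT replicate 2 (29.3 to 31.3%). For lncRNA genes with an end within 5 kb of a coding gene end the shares were 51.8%, 48.1% and 58.3%, and for 20665 protein-coding genes 58.1%, 55.2% and 63.0%. Without genes that had an end within 5 kb of a listed coding start, the gap between lncRNA classes was smaller. The shares were then 22.8%, 19.3% and 29.7% for 8462 isolated genes and 40.8%, 36.6% and 48.4% for 1522 other lncRNA genes. The differences below keep the genes near coding starts. The intervals cover counting error only and treat genes as separate, although 51, 41 and 71 end peaks touched more than 1 isolated gene. Over the genome the isolated genes lay 28.3 ± 0.211 percentage points (SD, n = 3 libraries) below the other lncRNA genes, with the same sign in 3 of 3 libraries (exact sign-flip permutation, two-sided p = 0.25, the smallest that 3 libraries allow). On the part of chromosome 1 that all 5 lists reach, up to position 37624379, the difference between 69 isolated and 47 other genes was -16.3 ± 5.02 percentage points (SD, n = 5 libraries) and was below 0 in 5 of 5 (two-sided exact sign-flip permutation p = 0.0625, the smallest that 5 libraries allow). On the longer part of that chromosome, which 4 lists reach, it was -25.3 ± 1.88 percentage points between 485 and 179 genes (SD, n = 4 libraries, negative in 4 of 4, two-sided exact sign-flip permutation p = 0.125, the smallest possible), and on the shared part it was -40.7 percentage points when only 5′ ends were counted.

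Nested genes were accessible at an end more often than intergenic genes, and also in windows 3 to 5 kb outside the ends, as given below. The shares of nested genes were 31.0%, 26.9% and 38.7%, those of intergenic genes 20.7%, 17.3% and 27.3%, and those of the 228 spanning genes 25.9%, 23.7% and 32.5%. Intergenic less nested was -10.4 ± 0.926 percentage points over the genome (SD, n = 3 libraries), with the same sign in 3 of 3 (two-sided exact sign-flip permutation p = 0.25, the smallest possible). On the shared part of chromosome 1, with only 50 intergenic and 15 nested genes, it was -30.9 ± 12.1 percentage points and negative in 5 of 5 libraries (two-sided exact sign-flip permutation p = 0.0625, the smallest possible). On the longer part that 4 lists reach, with 346 and 123 genes, it ranged from -13.9 to -11.3 percentage points. Coding starts within 5 kb could be looked for on every autosome but chromosome 18, which holds 315 isolated genes and no window of the promoter table used here. The 161 nested genes with an end within 5 kb of a listed coding start had an end peak in 49.7%, 44.7% and 55.9% of cases, and the other 1976 in 29.5%, 25.4% and 37.3%. Against those 1976, intergenic less nested was -8.97 ± 0.963 percentage points over the genome (SD, n = 3 libraries, negative in 3 of 3, two-sided exact sign-flip permutation p = 0.25).

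**Figure D1:**
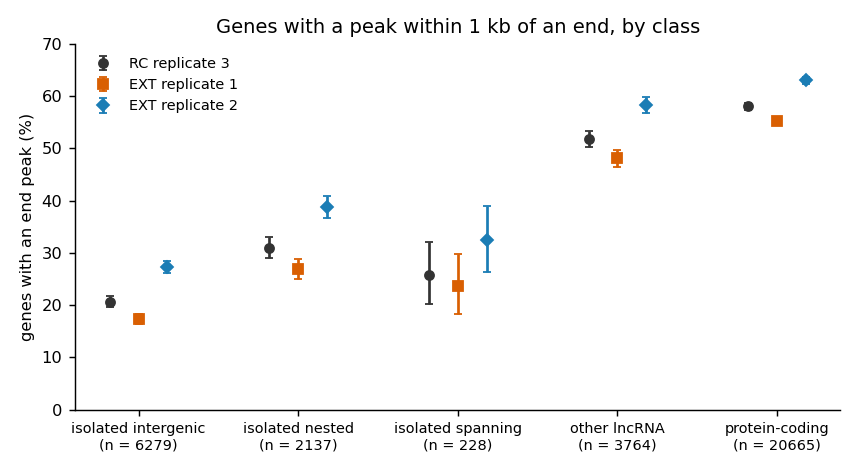
Share of genes with a peak within 1 kb of an end (y axis, percent) for 5 classes of autosomal gene (x axis), with 1 point per complete list and exact 95% binomial intervals as bars, some shorter than their point. In each list the intergenic class was lowest (17.3 to 27.3%), nested genes stood above it (26.9 to 38.7%), and the other lncRNA genes (48.1 to 58.3%) lay just under coding genes (55.2 to 63.0%).

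The shares of lncRNA genes with an end peak were highest at the closest distances to a coding gene end. Of lncRNA genes with an end within 1 kb of a coding gene end, 67.9%, 64.8% and 73.2% had an end peak, and at 1 to 2 kb the shares were 37.2%, 35.4% and 44.99%. From 5 kb to 50 kb they changed little, with 27.5 to 27.7% in RC replicate 3, while EXT replicate 1 gave 22.9 to 24.0% and EXT replicate 2 gave 33.6 to 35.9%. Beyond 100 kb they were 16.6%, 13.7% and 22.1%. That last step was seen in intergenic genes, which reached 14.3%, 11.7% and 19.5% beyond 100 kb, whereas nested genes that far from any coding gene end still had shares of 29.5%, 24.7% and 36.5%. Gene length made less difference. Intergenic genes under 2 kb long had shares of 21.3%, 16.9% and 30.5%, and those over 50 kb long 17.9%, 14.4% and 23.1%.

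**Figure D2:**
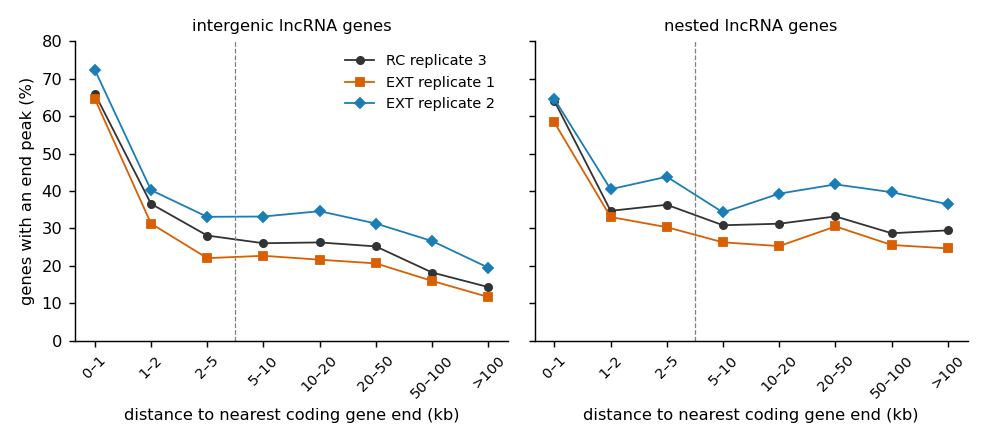
Share of lncRNA genes with an end peak (y axis, percent) by distance of the nearer gene end to a protein-coding gene end (x axis, bins in kb), for intergenic genes on the left and nested genes on the right, with 1 line per complete list and a dashed line at the 5 kb limit for isolated genes. Intergenic shares fell to 11.7 to 19.5% in the farthest bin, and nested shares there stayed between 24.7% and 36.5%.

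Peaks also occurred a few kb outside the gene ends, and no share above has that level subtracted. Windows of the same kind placed 3 to 5 kb outside both ends held a peak for 18.8%, 15.6% and 23.8% of isolated genes, so the ends exceeded them by factors of 1.25, 1.27 and 1.27. These outer windows held a peak for 26.5%, 22.2% and 34.4% of nested genes and for 16.1%, 13.5% and 20.2% of intergenic genes. The ends exceeded them by 4.49, 4.68 and 4.31 percentage points in nested genes. In intergenic genes the excess was 4.59, 3.82 and 7.09 percentage points. With strand known for 6456 isolated genes (74.7%), the excess could be placed at the 5′ end. A peak lay within 1 kb of the 5′ end of 15.8%, 13.2% and 21.0% of these genes, against 10.3%, 8.32% and 12.7% in the window 3 to 5 kb upstream. At the 3′ end the shares were 10.5%, 8.80% and 13.7%, close to the 9.84%, 8.09% and 13.2% found 3 to 5 kb downstream. The 5′ end exceeded the 3′ end by 5.30, 4.37 and 7.23 percentage points in isolated genes, and by 27.5, 27.6 and 30.4 in the other lncRNA genes.

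Along the genes, the extra peaks formed a narrow summit at the annotated start. Among 3336 intergenic genes longer than 5 kb with known strand, the 100 bp bin just inside the start overlapped a peak in 4.92%, 4.35% and 7.79%, which was 3.46, 3.77 and 3.89 times the mean 4 to 5 kb away. For 971 nested genes the highest bin was the 100 bp just before the start, at 7.31%, 5.36% and 9.37%, or 2.57, 2.49 and 2.68 times their flanks. Nested flanks were themselves higher, at 2.84%, 2.15% and 3.496% against 1.42%, 1.15% and 2.00% around intergenic genes. In the 903 nested genes with no listed coding start within 5 kb of an end, the highest bin stood at 6.42%, 4.43% and 8.42%, or 2.25, 2.08 and 2.36 times the flanks. At 3′ ends the highest bin was at most 1.60 times the flank, and for intergenic genes it lay at a different place in each list.

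**Figure D3:**
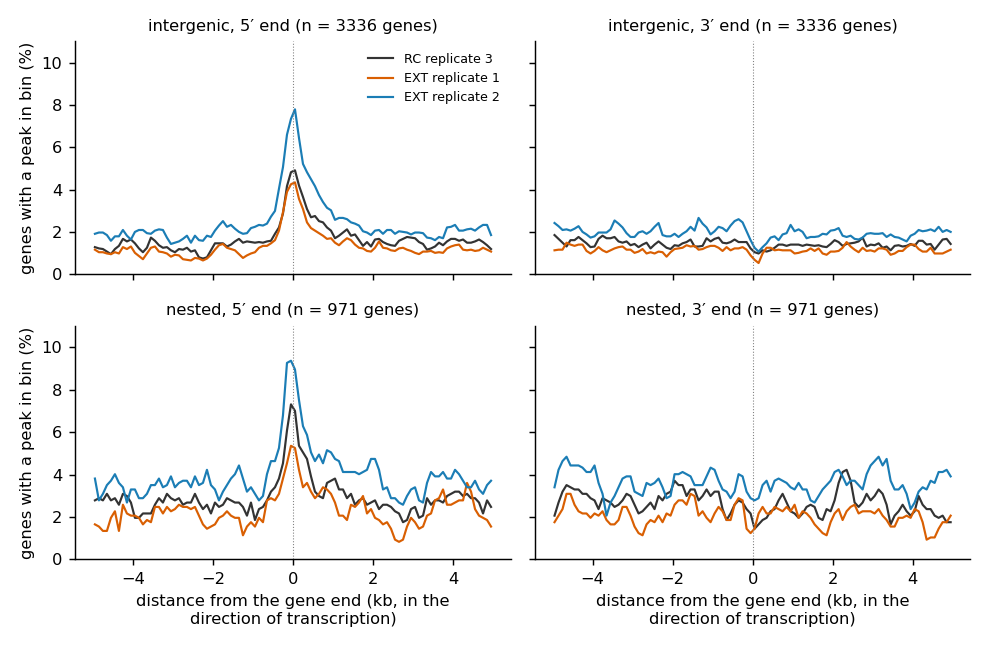
Share of isolated lncRNA genes over 5 kb long with a peak in each 100 bp bin (y axis, percent) by distance from the 5′ end (left) or 3′ end (right) in kb along the direction of transcription (x axis), for intergenic genes above and nested genes below, 1 line per complete list. All 3 lines rise at the 5′ end, to 4.35 to 7.79% for intergenic and 5.36 to 9.37% for nested genes, and show no such summit at the 3′ end.

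The end peaks of isolated genes were of ordinary size for their lists. Their median width was 229, 229 and 274 bp, beside 204, 206 and 242 bp over the whole lists, and 325, 307 and 383 bp at the other lncRNA genes. Peaks were ranked within each list by their deposited −log10 q value, so that 100 is the strongest. The median rank of the isolated end peaks was the 50.3rd, 49.9th and 52.3rd percentile, against the 64.7th, 64.6th and 69.5th at other lncRNA genes and the 68.3rd, 67.4th and 73.2nd at coding genes. Their median fold enrichment, the authors' ratio of tags at the summit to the local background, was 3.82, 3.70 and 4.52. Over the whole lists it was 3.87, 3.70 and 4.41. A width of 150 to 160 bp, about the length to which tags were extended, was found in 28.3%, 25.2% and 20.9% of them. The whole lists had more such peaks, at 31.9%, 30.6% and 24.7%. Widths of 1000 bp or more occurred in 36, 19 and 56 members, and in 801, 466 and 1373 peaks of the whole lists.

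All 3 complete lists had an end peak at 1189 isolated genes, or 13.8%, where 22.3% of all autosomal lncRNA genes and 40.2% of lncRNA and coding genes together did. No list had one at 5514 genes. EXT replicate 2 alone accounted for 746, and RC replicate 3 with EXT replicate 2 for 477. For 1056 of the 1189 genes (88.8%) the peaks of the 3 lists shared a stretch of sequence, and for 115 (9.67%) a peak with the same start and end was in each list. Their best end peaks stood at the 65.5th, 61.7th and 75.4th percentile in the median. This takes only the strongest peak of each gene, so it cannot be compared with the median over all isolated end peaks. RC replicate 1 could be read at 63 of the 1189 genes, and 58 had an end peak there too.

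The highest ranked intergenic gene, AY036118 (chromosome 17, 39848112 to 39898385), differed from the rest. Its peaks, at 39847459 to 39848858, 39847510 to 39848852 and 39847511 to 39848856, had 7167, 3282 and 5766 tags at the summit but folds of only 3.16, 2.92 and 2.86. They lay at its 3′ end and overlapped the neighbouring 18S ribosomal RNA pseudogene Rn18s-rs5 (39846354 to 39848202) by 744, 693 and 692 bp. Ribosomal RNA sequence occurs in many copies in the genome, and the share of these tags that came from elsewhere was not tested.

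The other 9 highest ranked intergenic genes had end peaks in 3 of 3 lists at the 93.7th percentile or above, some at the start and some at the 3′ end. D130051D11Rik (chromosome 15, 85634596 to 85640524), 52.8 kb from the nearest coding gene end, that of the signalling protein gene Wnt7b, had a peak over its start in each list. It ran from 85634328 to 85635306, from 85634341 to 85635123 and from 85634335 to 85635163, with folds of 13.4, 9.26 and 14.7. Gm33628 (chromosome 12, 108756515 to 108758191), 34.8 kb from Yy1, a zinc finger transcription factor gene, had folds of 12.0, 8.22 and 13.5 at a peak over its start that began between 108757703 and 108757742 in the 3 lists. At both genes the peaks of the 3 lists overlapped. Only genes with an end peak in all 3 lists were ranked here, so presence in RC and EXT lists was fixed beforehand.

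Gm38959 (chromosome 11, 95854987 to 95858451) had start peaks with folds of 9.93, 7.08 and 16.9. They also covered an end of the lncRNA gene 4833417C18Rik and a transfer RNA gene, n-TQttg6, so these genes share 1 open region. Gm33560 (chromosome 7, 141123231 to 141126228), 5.04 kb from Ptdss2, and Gm34590 (chromosome 15, 36937995 to 36963704), 33.3 kb from Zfp706, also had peaks within 1 kb of their starts, with folds of 12.1, 8.04 and 13.4 and of 7.96, 7.71 and 8.84. The 2700054A10Rik peaks (chromosome 17, gene at 13487021 to 13554094), with folds of 11.4, 12.7 and 10.96, reached to within 1 kb of its start but did not overlap the 300 bp promoter window.

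For Gm40034 (chromosome 2, 181914498 to 181918503) and Gm32767 (chromosome 1, 181534996 to 181540014) the peaks were at the 3′ end. Their folds were 12.0, 11.1 and 11.5 and 14.5, 11.7 and 15.9, and no list had a peak over either promoter window. Gm34020 (chromosome 13, 44467020 to 44470727), 260 kb from Jarid2, had the member peak with the highest fold in RC replicate 3 and in EXT replicate 1, at 29.3 and 25.6, and 16.0 in EXT replicate 2. That peak had the same bounds, 44465872 to 44466032, in 3 of 3 lists and was 161 bp wide, near the length of a single extended tag.

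The 10 highest ranked nested genes had their best peak within 1 kb of the start in most cases. Hk1os (chromosome 10, 62340234 to 62363611) lies in Hk1, which encodes a hexokinase, the enzyme that starts glycolysis. Its start peaks, 62339785 to 62340919, 62339795 to 62340968 and 62339718 to 62340796, were over 1000 bp wide with folds of 8.27, 7.72 and 11.5. Gm38560 (82845215 to 82859008 on the same chromosome) lies in Txnrd1, the gene of a thioredoxin reductase, and its start peaks had folds of 10.2, 11.6 and 10.2. The closest outer ends of coding genes, those of Hk1 itself and of Eid3, were 16.3 kb and 7.62 kb away. Inner coding starts were closer: 6 of these 10 nested genes had an end within 1 kb of one, and their peaks cannot be assigned to the lncRNA gene alone. For Hk1os it was the start of Hk1 at 62340421 and for Gm38560 that of Txnrd1 at 82859206.

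Gm40345, in the cytochrome P450 reductase gene Por, had start peaks with folds of 10.1, 7.89 and 13.9. At Gm15743, in Bdh1, a gene of ketone body metabolism, the folds were 7.50, 6.28 and 10.6. Gm53063, in Ntrk2, the gene of the receptor for brain-derived neurotrophic factor, had folds of 6.22, 5.64 and 11.3. 6430590A07Rik in Abhd18 had 7.81, 8.92 and 13.3, and these 4 genes each had a peak over the promoter window in all 3 lists. In 3 of these 4 genes EXT replicate 1 had the lowest fold and in all 4 EXT replicate 2 had the highest, while folds are relative to each library's own background. The start of Gm40345 was 94 bp from a start of Por and that of 6430590A07Rik 155 bp from one of Abhd18, the 3′ end of Gm15743 was 877 bp from a start of Bdh1, and Gm53063 had no listed coding start within 5 kb of its ends.

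A further nested gene, 4930447F24Rik in Bsn, which encodes the presynaptic scaffold protein Bassoon, had its peaks at the 3′ end, with folds of 5.22, 6.20 and 10.2. Gm52385 in Atrnl1 and Gm39318 in Tirap, an adaptor of Toll-like receptors, had peaks within 1 kb upstream of their starts and outside the promoter window. Their folds were 14.3, 13.5 and 13.0 and 15.9, 18.8 and 12.5. Gm46766 in Cds2, a gene of phospholipid synthesis, had folds of 9.77, 6.88 and 13.9, and its strand was not used here. An end of it lay 356 bp from a start of Cds2.

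**Figure D4:**
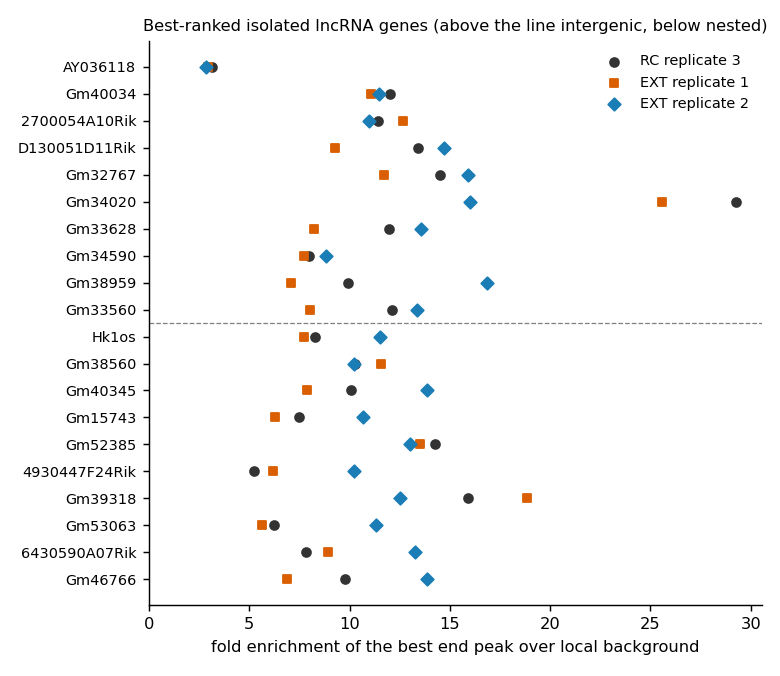
Fold enrichment over local background of the best end peak (x axis) for the 10 highest ranked intergenic (above the dashed line) and nested (below it) isolated lncRNA genes (y axis), with 1 symbol per complete list. AY036118 lies near 3 in spite of the highest rank, Gm34020 reaches 29.3 in RC replicate 3, and the symbols of the other 18 genes lie between 5.22 and 18.8.

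Of 182 isolated genes with a literature-style name, 58, 51 and 67 had an end peak (31.9%, 28.0% and 36.8%), 41 in all 3 lists and 106 in none. Of all isolated genes, 23.4%, 19.8% and 30.3% had one. Kcnq1ot1 (chromosome 7, 143213111 to 143296547), an imprinted antisense transcript inside Kcnq1 that silences neighbouring genes, had a start peak with folds of 6.69, 7.16 and 8.41. Dancr had folds of 11.2, 8.61 and 14.1 at its start (74093060). Dubr (chromosome 16, 50726751 to 50732773) had folds of 8.05, 8.83 and 8.62, at the 89.0th, 93.6th and 84.5th percentile of the lists.

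For other named genes the best end peak did not always lie over the start. Malat1 (chromosome 19, 5795690 to 5802672), which makes an abundant nuclear RNA, had its best peak past the 3′ end in RC replicate 3 (5793415 to 5795520, fold 4.23) and in EXT replicate 1 (5793639 to 5794922, fold 4.49), and upstream of the start in EXT replicate 2 (5803266 to 5803866, fold 5.47). Mirg and Snhg7os also had their best peaks at the 3′ end, with folds of 4.24, 4.53 and 6.92 and of 7.44, 6.95 and 11.6. Both EXT lists, but not RC replicate 3, had a peak over the promoter window of Mirg as well. Airn, the imprinted antisense transcript of the Igf2r region, had peaks within 1 kb inside its start with folds of 9.37, 8.10 and 5.09. Zim3, which the RefSeq table lists as an lncRNA gene, had the same 160 bp peak in each list (6955523 to 6955682 on chromosome 7), and so did Mirc35hg (30157925 to 30158084 on chromosome 6).

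The remaining names chosen by rank were Tvp23bos, Zfp652os, Rab11fip4os2, Nckap5los and Mir124a-1hg, with folds from 3.23 to 10.1 over genes and lists, and Trmt61b, again listed as an lncRNA gene, with folds of 6.70, 8.11 and 9.86. Among other well-known names, H19, Miat, Norad, Tunar and Lncpint had an end peak in all 3 lists, Neat1, Paupar and Sox2ot in RC replicate 3 and EXT replicate 2, and Hotair, Rmst and Meg3 in none. These 11 were picked from the list of 182 after their values were seen. Small nucleolar RNA host genes of the Snhg series, without the opposite-strand gene Snhg7os, had an end peak in 4, 3 and 4 of 4 cases, and the Platr genes, named for expression in pluripotent cells, in 1, 1 and 2 of 11. Opposite-strand genes, whose names end in os, had one in 19, 18 and 23 of 80. Over all isolated genes the shares were 23.4%, 19.8% and 30.3%, and no name group was tested against them.

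Host genes of microRNAs had an end peak in 5, 4 and 4 of 11 cases, beside 23.4%, 19.8% and 30.3% of all isolated genes. An annotated start need not be the start of transcription. Mir100hg, which holds the hairpins of miR-100, let-7a-2 and miR-125b-1, had a start peak in each list, at 41376166 to 41376417, 41376116 to 41376573 and 41375979 to 41376665 on chromosome 9, with folds of 3.42, 4.08 and 7.86. Mir17hg (115044390 to 115046728 on chromosome 14) had no end peak. Its promoter window printed above contains the hairpins of Mir20a and Mir19b-1, so the annotated start lies within the microRNA cluster. Each list had a peak upstream of that start, beginning at 115041853 in 3 of 3, with folds of 5.34, 9.80 and 6.40 and with its near edge 2378, 2378 and 1906 bp away. Mir99ahg, Mir124-2hg, Mir1a-1hg and Mir217hg had no end peak either.

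Within a coding gene that holds several nested lncRNA genes, some of these could have an end peak and others not. There were 1523 hosts, of which 138 held 3 or more nested genes. Camta1, which encodes a calmodulin-binding transcription activator, held 7 nested genes, with an end peak at 4, 3 and 6 of them, and Gm52711, Gm45960 and Gm52712 had one in all 3 lists. Rgs6, a regulator of G protein signalling, held 5, accessible in 3, 3 and 5 cases. Camta1 and Rgs6 were named for holding many nested genes with an end peak, so their high counts were fixed by that choice. Zfhx3 held the most, 8, of which 2, 1 and 3 had an end peak, beside 31.0%, 26.9% and 38.7% of all nested genes.

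The most end peaks at an isolated gene were found at 1700016A09Rik in Gse1, with 4, 4 and 5, and at Gm32703 in Pde4d, a gene of cyclic AMP breakdown, with 5, 4 and 4. Gm31439 in Tcf4 had 3, 2 and 4. The intergenic gene Gm52046, 47.9 kb from the neuronal transcription factor gene Mef2c, had 3 in each list, and its best peak, with folds of 5.43, 4.76 and 5.95, also touched the lncRNA gene C130071C03Rik. At 1700016A09Rik, whose start was 317 bp from a start of Gse1, the folds were low, 3.09, 3.29 and 3.09.

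Around coding genes with known roles in neurons, the shares of isolated lncRNA genes with an end peak stood on either side of, or below, those of their class. Of 30 transcription factor genes of cortical neurons, 24 were the nearest coding gene to 113 intergenic lncRNA genes, of which 18.6%, 15.04% and 22.1% had an end peak, beside 20.7%, 17.3% and 27.3% of all intergenic genes. The same list hosted 22 nested genes with 27.3%, 27.3% and 40.9%, beside 31.0%, 26.9% and 38.7% of all nested genes. Of 33 genes of synaptic adhesion and axon guidance, 18 hosted 42 nested genes with 28.6%, 23.8% and 42.9%, and 20 were nearest to 36 intergenic genes of which 1, 0 and 4 had an end peak. Of 27 channel and receptor genes, 13 hosted 21 nested genes (5, 4 and 6 with an end peak) and 13 were nearest to 23 intergenic genes (4, 3 and 2). For 12 transcription factor genes of inhibitory neurons, 22 intergenic genes had an end peak in 1, 2 and 2 cases and the 2 nested genes in 0, 0 and 1. The glia and vessel list, of 18 genes, was nearest to 6 intergenic genes (3, 1 and 2) and hosted 3 nested genes (1 in each list).

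CpG content rose with the number of lists that held a peak over the promoter window. Since the promoter table matched 74.7% of the isolated genes, the composition check is void for the whole class of 8644 and describes the 6456 matched windows, whose genes had end peak shares of 23.6%, 20.1% and 30.3%, beside 22.7%, 18.97% and 30.1% for unmatched genes. A peak overlapped 7.16%, 5.87% and 10.3% of these windows, against 29.9%, 29.6% and 35.8% for other lncRNA genes and 46.5%, 44.5% and 52.3% for coding genes. The median CpG observed over expected was 0.44 in the 271 windows with a peak in all 3 lists, 0.29 in the 505 with a peak in 1 or 2 and 0.20 in the 5680 with none. The median GC content was 54.0%, 50.3% and 46.7% in the same order. Both a ratio over 0.6 and a GC content over 50% were met by 29.5%, 8.12% and 1.92%.

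Even so, most isolated starts that were open in every list were not CpG rich, unlike those of other genes. The same limits were met by 81.6% of the windows of other lncRNA genes with a peak in all 3 lists, whose median ratio was 0.86, and by 81.2% of those of coding genes, with a median of 0.82. Read the other way, windows of isolated genes with a ratio of 0.8 or more (109 genes) overlapped a peak in 50.5%, 51.4% and 62.4% of cases. From 0.6 to 0.8 the shares were 22.4%, 19.2% and 24.3% of 255 genes, and below 0.2 they were 3.97%, 2.83% and 6.17% of 2999. Intergenic and nested windows open in all 3 lists had medians of 0.42 and 0.50. Of the 271 open windows, 30 belonged to genes with an end within 5 kb of a listed coding start and had a median of 0.84, and the other 241 had a median of 0.40, beside 0.20 in the 5586 such windows with no peak.

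**Figure D5:**
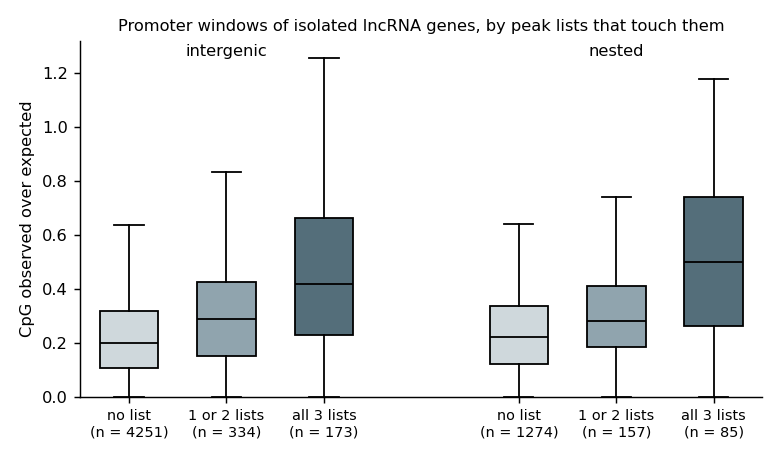
CpG observed over expected (y axis) in 300 bp promoter windows of isolated lncRNA genes, grouped by the number of complete lists with a peak over the window (x axis), for intergenic genes on the left and nested genes on the right. Boxes span the quartiles around the median line, whiskers reach the farthest value within 1.5 box heights and values beyond are not drawn. Medians rise from 0.20 to 0.42 in intergenic and from 0.22 to 0.50 in nested windows.

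Sequence motifs were counted in these windows on both strands, as letters and not as bound sites. For each motif, 3 shares follow: isolated windows open in all 3 lists, isolated windows with no peak, and, in brackets, the 7807 promoters of any class that were open in all 3 lists. The EGR motif GCGNGGGCG was in 7.38% and 0.30% (10.8%). The core of the CTCF motif was in 5.17% and 1.02% (5.83%), and the cyclic AMP response element TGACGTCA in 2.58% and 0.62% (4.09%), which rests on 7 open isolated windows. These 3 motifs were thus more frequent in open than in closed isolated windows and their shares lay below those of open promoters of all classes together, a difference that was not tested. The AP-1 motif TGANTCA, read by the Fos and Jun proteins, was in 9.59% and 10.5% (3.89%), and the TATA motif TATAAA in 9.59% and 18.3% (5.57%). The MEF2 motif was in 2.58% and 4.51% (2.81%) and the NRF1 motif in 0.74% and 0.07% (2.59%). Over all 25748 promoters of the table the EGR motif was in 5.63% and the AP-1 motif in 7.98%. The EGR, NRF1 and cyclic AMP response element motifs contain CpG themselves, and how far CpG content accounts for their shares was not tested.

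Extinction and control libraries did not differ in the share of isolated genes with an open end beyond the spread between libraries. On the shared part of chromosome 1 the shares of 69 genes were 26.1%, 24.6% and 17.4% in RC replicates 1, 2 and 3, and 15.9% and 26.1% in EXT replicates 1 and 2. The groups overlapped, with means of 22.7% ± 4.66 (SD, n = 3) and 21.0% ± 7.17 (SD, n = 2). EXT less RC was -1.69 percentage points (p = 0.8 in a two-sided exact permutation test, where 0.1 is the smallest possible). It was 3.38 percentage points without EXT replicate 1 and 0 without RC replicate 1, so its sign rested on these libraries. With 485 genes on the longer part of chromosome 1 RC replicates 1 and 3 had 27.0% and 20.6%, the EXT libraries had 17.3% and 30.1%, and EXT less RC was -0.103 percentage points (p = 1 by the same exact permutation test). Over the genome the order of the 3 libraries was that of the lengths of their lists, and with each list shortened to 80735 peaks the numbers of isolated genes with an end peak drew together, from 2020, 1713 and 2618 to 1751, 1713 and 1955.

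Both EXT lists, but not RC replicate 3, had an end peak at 206 isolated genes, or 2.38%, where 2.19% of lncRNA and coding genes together and 2.5% of all lncRNA genes had this pattern. The opposite, RC replicate 3 and no EXT list, held for 194 isolated genes, or 2.24%, beside 1.45% and 2.08%. Both shares were near those of all lncRNA genes, but most of these are the isolated genes themselves. Of the other lncRNA genes alone, 2.76% had the EXT pair pattern and 1.70% the RC replicate 3 pattern. These differences were not tested. Of the 206 genes the EXT peaks overlapped each other at 155, and 144 had such peaks that met no peak of RC replicate 3. RC replicate 1, whose list covers 11 of these 206, had an end peak at 7 (63.6%, exact 95% binomial interval 30.8 to 89.1%), compared with 12 of 320 genes (3.75%) that were in no complete list. It had one at 2 of the 9 genes of the opposite pattern that its list covers (22.2%, exact 95% binomial interval 2.81 to 60.0%), an interval that overlaps the first. These peaks were weak, with median folds of 3.22 and 4.09 at the 25.8th and 40.3rd percentile of their lists, and those of the 194 genes had a median fold of 3.03 at the 18.6th percentile.

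Among the 206 genes, Gm33502 (chromosome 16, 30793422 to 30798813) had peaks just before its start, beginning at 30793136 in both EXT lists and ending at 30793365 in EXT replicate 1 (fold 4.99) and at 30793389 in EXT replicate 2 (fold 8.35). Gm51499 (chromosome 7, 129651337 to 129653108) had overlapping peaks at its 3′ end with folds of 3.67 and 6.83. Gm31564, 108.6 kb from the end of Tcf4, a transcription factor gene of cortical neurons, had overlapping peaks with folds of 4.67 and 7.64. These 3 genes had overlapping EXT peaks that met no peak of RC replicate 3. The other 3 of the 6 highest ranked did not: the peaks of Gm3434 and of 1700010G06Rik lay apart in the EXT lists, and those of 1700010G06Rik and Gm35037 met a peak of RC replicate 3 outside the window. The Gm3434 peaks were 160 bp wide in EXT replicate 1 and 161 bp in EXT replicate 2.

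The 6 highest ranked genes with the opposite pattern were mixed as well. The RC replicate 3 peaks of Gm31501 (42450279 to 42450600 on chromosome 18, fold 13.4) and of 4930552P06Rik (107598347 to 107599463 on chromosome 4, fold 4.80) overlapped EXT peaks that lay outside the window. At Gm41125, Gm41232, Gm51672 and 4930529I22Rik the peaks met no EXT peak. They were 160 or 161 bp wide, with folds of 5.49, 5.92, 5.92 and 5.78. Of all 194 genes with this pattern, 30.9% had a best peak of 150 to 160 bp, beside 22.0% for RC replicate 3 at genes open in all 3 lists. Such widths were as common in RC replicate 3 at large, at 31.9% of its whole list and 28.3% of its isolated end peaks.

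When the end peaks of the 3 lists were merged where they overlapped, 4095 regions resulted. All 3 lists contributed to 1118 of them (27.3%), EXT replicate 2 alone to 1232 (30.1%), RC replicate 3 alone to 369 and EXT replicate 1 alone to 330. Of the regions in exactly 2 lists, 573 joined RC replicate 3 with EXT replicate 2 and 252 RC replicate 3 with EXT replicate 1. The EXT pair had 221 (5.40%), the smallest of these region numbers, but it was not the smallest by gene. Among isolated genes the EXT pair had 206, RC replicate 3 with EXT replicate 1 had 160 and RC replicate 3 with EXT replicate 2 had 477. Over all autosomal lncRNA and coding genes the numbers were 724, 495 and 1712 in the same order. Accessible ends of isolated genes occurred on every autosome, with the mean share over the 3 lists between 16.6% on chromosome 3 and 29.4% on chromosome 17.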

How the data were processed

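Peak lists of 5 ATAC-seq libraries (3 RC, 2 EXT) were used, grouped by sample title (the deposited file for EXT replicate 2 is numbered 3, unlike its title); EXT replicate 3 and the RNA capture libraries were not analysed here. Per the submitters' processing notes the build was mm10 and the tools included the peak caller MACS2 2.2.4, the aligners BWA 0.7.17 and HISAT2 2.1.0, bedtools 2.27.1, SAMtools 1.8 and cutadapt 1.17. For the ATAC-seq libraries the aligner was not given in the sources used here. Each library had its own peak calling by the authors, per the file headers, with MACS 2.2.4, without a control, with a tag shift of -75 bp, extension to 150 bp, duplicates kept and a q-value cutoff of 0.05. A peak may therefore rest on few molecules. The deposited pileup is a coverage signal in whole tags at the summit, although the headers set scaled output. The deposited −log10 values (p and q) and the fold enrichment, a ratio of pileup to local background per the file headers, belong to their own list and served only to describe or rank its peaks. Tag totals came from the headers.

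An incomplete last line was dropped from the lists of RC replicates 1 and 2. Gene positions (1-based), strand and promoters came from RefSeq tables of GRCm38.p6. Overlaps were counted in python 3.11.15 with pandas 2.3.3 and tested with exact permutations over libraries; the overlap code recovered all genes planted in simulated lists. Intervals are exact (Clopper-Pearson) and cover counting error only. Genes were named by the mean over lists of the rank percentile of their best end peak: the 10 highest intergenic and nested genes in all lists, 6 found in the EXT pair alone, 6 found in RC replicate 3 alone, up to 15 literature-style names, microRNA hosts, the 3 hosts with most accessible nested genes, and the genes with most end peaks. Some genes that this rule or the marker lists select are not reported here. The members, gene lists and rules were chosen with earlier results of these data known. Alternatives were other windows (500 bp, 2 kb), other distance limits (2 kb, 10 kb), lists of equal length, a stricter list (minimum −log10 q of 5), the summit in place of the peak, no peaks of 200 bp or narrower, the 5′ end only, overlapping peaks, the best peak by fold, each library left out, a replicate block and, added after seeing the data, the longer part of chromosome 1 for the differences between classes and isolated genes without those that have an end within 5 kb of a coding start in the promoter table.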

Additional observations from a re-analysis of the deposited data

How the results depend on the processing

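Of 116 recomputed values, 103 kept their direction and stayed within 1.5 times the reported count or on the same side of the test, and 13 did not. Isolated less other lncRNA genes and intergenic less nested genes kept their sign in every setting, from -40.7 to -12.8 and from -35.0 to -12.9 percentage points on chromosome 1 and from -35.8 to -23.0 and from -16.5 to -6.95 over the genome. No setting left out the other lncRNA genes that have an end within 5 kb of a coding start. Isolated genes open in all 3 lists numbered 767 with windows of 500 bp, 1912 with 2 kb and 730 without peaks of 200 bp or narrower. With windows of 2 kb, 2604 genes had an end peak in EXT replicate 1. Without the narrow peaks the counts were 1210 in RC replicate 3 and 1045 in EXT replicate 1, and at the 5′ end alone, with fewer genes, 1019, 850 and 1353. The 206 genes of the EXT pair became 120 in the stricter list. EXT less RC on chromosome 1 was 0.966 percentage points with windows of 500 bp, and leaving out 1 library gave -6.76 to 3.38, with 0 without RC replicate 1. The replicate block over numbers 1 and 2 gave -4.35 percentage points (exact permutation p = 1); nothing in the labels pairs these numbers, and RC and EXT deviations by number correlated at -0.382 over the 69 genes (Pearson, across genes). The causes of these shifts were not tested. With 1 complete RC list, no test between groups over the genome was possible, and read depth at each region was not used.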
